A study of Homo sapiens with 26 samples.

Results

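The imprinted small nucleolar RNA (snoRNA) clusters of human chromosomes 14 and 15 were followed across depletions of DNA methyltransferases in NCCIT cells, a human embryonic carcinoma line. Members were taken by name, as the genes SNORD64, SNORD107, SNORD108, SNORD109A and SNORD109B and every copy of SNORD112, SNORD113, SNORD114, SNORD115 and SNORD116 with an array row listing that symbol alone. This gave 46 genes of 18417, namely 2 copies of SNORD113 and 4 of SNORD114 on chromosome 14, and 20 copies each of SNORD115 and SNORD116 on chromosome 15. RefSeq lists 124 genes under these names, of which 34 were represented only in rows shared with other symbols (SNORD64, SNORD109A and SNORD109B among them) and 44, including SNORD107, SNORD108 and SNORD112, had no row under their name. The shared rows were kept out of the gene results.

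Transcript levels came from 26 Affymetrix Human Gene 1.0 ST arrays in 13 groups of 2. In 11 groups siRNA was directed against DNMT1 (siDNMT1), DNMT1 with DNMT3A (siD1+3A), with DNMT3B (siD1+3B) or with both (siD1+3A+3B), against DNMT3A, DNMT3B or DNMT3L singly (siDNMT3A, siDNMT3B, siDNMT3L), or against all 3 together (3A+3B+3L) or pairs of them (3B+3L, 3A+3L, 3A+3B). The other 2 groups, siNTC-1 and siNTC-2, received control siRNA. All 13 groups are the same unmodified line, transfected by the same reagent, and whether duplicates are separate cultures is not in the labels. The p-values therefore rest on a spread between duplicates that may be technical.

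The embryonic carcinoma markers SOX2, LIN28A and SALL4 averaged 12.33, 12.00 and 10.93 on the log2 scale, while POU5F1 and NANOG had no row under their symbol alone. Targeted transcripts remained at 39.3% to 56.7% of the mean of both controls for DNMT1, 62.3% to 73.0% for DNMT3A, 56.0% to 89.3% for DNMT3B and 68.7% to 80.1% for DNMT3L. The target was not depleted in every group against the control of its own array set: DNMT3B averaged 11.66 in 3A+3B+3L, against 11.98 in siNTC-1 and 11.67 in siNTC-2. DNMT3L was also lower where it was not targeted, at 75.2% of both controls in siDNMT1 and 80.1% in siDNMT3B, so its range does not set the groups targeted for it apart. The arrays stood in 2 sets along the first principal component of all genes other than SNORD genes, which held 49.2% of their variance. The 8 arrays of siDNMT1, siDNMT3B, siDNMT3L and siNTC-1 formed one set and the 18 arrays of the other 8 depletions and siNTC-2 formed the other. No label names a batch, and the part of these sets in any difference below was not tested, so each depletion is given against both controls together and against each control separately.

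C/D box snoRNAs are short RNAs cut from the introns of host transcripts, and most guide 2′-O-methylation of ribosomal RNA. Those studied here are so-called orphans with no established target in ribosomal RNA, although SNORD115 has been linked to the pre-mRNA of the serotonin receptor gene HTR2C. Both clusters are subject to parental imprinting, in which DNA methylation set in the germ line decides which parental copy is transcribed. SNORD115 and SNORD116 lie in the long paternal transcript SNHG14, which starts near SNURF and SNRPN and runs on antisense to UBE3A, and loss of the paternal SNORD116 cluster is associated with Prader-Willi syndrome. SNORD112, SNORD113 and SNORD114 lie in the maternally expressed transcripts downstream of MEG3, and SNORD115 is known chiefly from brain.

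The DNA at the starts of both host regions is shown because the depleted enzymes methylate CG pairs (DNMT3L as a cofactor without activity of its own). MEG3 had 3 listed starts, of which the one at the lowest coordinate is shown, and SNURF had 1. Each window covers 250 bases before and 50 after that RefSeq start on the plus strand of GRCh38.p14, chr15:24954737-24955036 for SNURF and chr14:100825858-100826157 for MEG3, with every CG pair in capitals.
SNURF: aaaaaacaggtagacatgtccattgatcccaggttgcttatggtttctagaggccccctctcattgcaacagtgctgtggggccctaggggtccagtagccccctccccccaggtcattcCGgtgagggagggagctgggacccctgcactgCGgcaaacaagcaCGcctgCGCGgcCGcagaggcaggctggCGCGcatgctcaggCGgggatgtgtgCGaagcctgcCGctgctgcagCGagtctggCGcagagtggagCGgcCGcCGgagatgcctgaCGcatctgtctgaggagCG
MEG3: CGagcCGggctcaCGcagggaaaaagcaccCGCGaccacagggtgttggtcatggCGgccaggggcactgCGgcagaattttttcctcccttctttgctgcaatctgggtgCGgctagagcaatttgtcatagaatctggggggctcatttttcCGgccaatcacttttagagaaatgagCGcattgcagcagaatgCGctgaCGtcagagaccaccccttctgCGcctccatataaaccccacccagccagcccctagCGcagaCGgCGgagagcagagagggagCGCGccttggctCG
The SNURF window held 18 CG pairs and the MEG3 window 19, with a G+C content of 64.3% and 59%. A CG pair, which reads the same on both strands, occurs in 96.0% of 35116 such windows, with a median of 14, and 55.5% and 57.1% of the windows held fewer than those of SNURF and MEG3. The windows are a description of sequence only, since methylation was not measured on these arrays. Of the genes at these starts, MEG3 had a row of its own and averaged 4.73 over the 26 arrays.

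Most SNORD116 copies were among the brightest genes on the arrays, and the SNORD113, SNORD114 and SNORD115 copies all averaged below the median gene. The rows left out because they are shared were bright for SNORD109A with SNORD109B (11.71) and for SNORD64 with another symbol (11.80). The mean log2 signal of the 20 SNORD116 copies lay between 6.94 for SNORD116-10 and 13.70 for SNORD116-15, and the median copy was at the 95.7th percentile of all genes. SNORD116-15 ranged from 13.33 to 13.90 over the 26 arrays, and SNORD116-14, SNORD116-20, SNORD116-21 and SNORD116-24 averaged 13.62, 13.08, 13.02 and 13.02. At the other end were SNORD116-18 at 7.45, SNORD116-12 at 7.58, SNORD116-16 at 7.91 and SNORD116-28 at 8.79. The median of all 18417 genes was 6.80, so every one of the 20 copies had a mean above it. Differences in level between copies can reflect their probes as well as their abundance, because each row has its own probes.

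All 20 SNORD115 copies averaged below the median gene. They ran from 3.69 (SNORD115-41) to 5.92 (SNORD115-37), with a median of 4.55, where the 5th and 25th percentiles of all genes were 4.11 and 4.87. SNORD115-37 ranged from 5.62 to 6.22 over the arrays and SNORD115-4, the next, averaged 5.45. The 6 members of chromosome 14 were as dim: SNORD113-3 was the highest at 4.58, SNORD114-6 the highest of its family at 4.38, and SNORD113-4 the lowest at 3.66. At these signals a change in a weakly transcribed RNA may not be detectable, and a call on such a row rests on values close to those of the dimmest genes on the arrays.

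**Figure D1:**
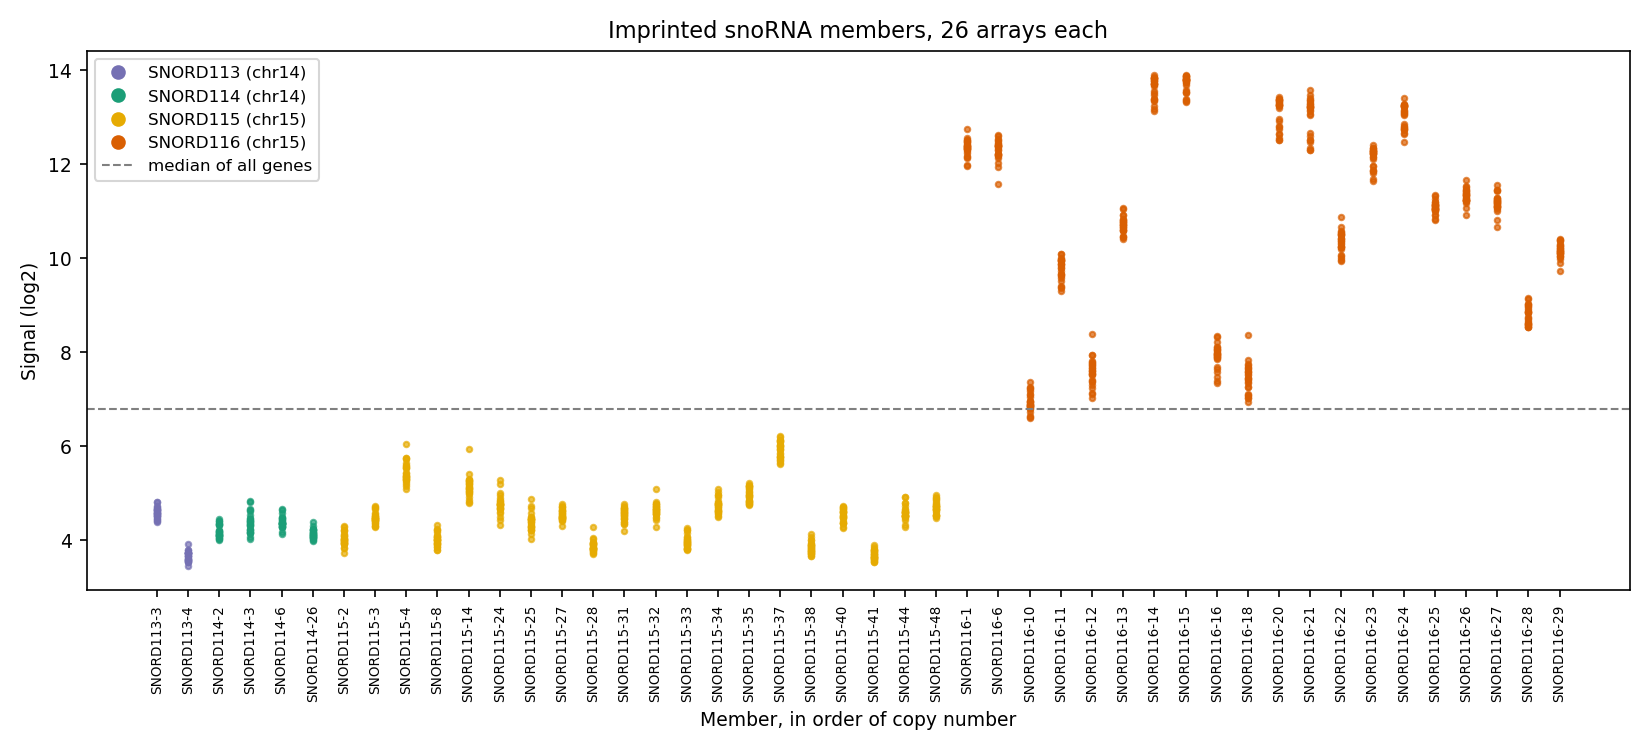
Log2 signal (vertical axis) of the 46 members (horizontal axis, by family and copy number) on each of the 26 arrays (points), coloured by family; the dashed line is the median of all genes, 6.80. The 20 SNORD116 copies average 6.94 to 13.70, and the members of the other families average 5.92 or less.

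SNORD116 also varied most between groups. The SD of the 13 group means had a median of 0.20 over the SNORD116 copies, 0.11 over SNORD115 and 0.09 over the chromosome 14 members, against 0.12 over all genes and 0.26 over the 69 other C/D box RNAs (SNORD genes outside these clusters). The widest were SNORD116-21 at 0.40, SNORD116-20 at 0.32, SNORD116-12 at 0.27, SNORD116-24 at 0.26 and SNORD116-11 at 0.24. The duplicates of siNTC-1 differed most, by a mean of 0.24 over the 46 members, and those of 3A+3B+3L least, by 0.08. The rows of near-identical copies can take up each other's RNA, and probes inside an intron-encoded snoRNA cannot tell the mature RNA from its precursor, so copies are not independent measurements.

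The control groups were compared first, since the depletions are read against them. In siNTC-2, 18 of the 46 members differed from siNTC-1 by limma's moderated test with Benjamini-Hochberg adjustment over all genes (adjusted p under 0.05), 5 higher and 13 lower, where 44.7% of all genes were called, 24.2% as higher and 20.5% as lower. The SNORD116 copies went both ways: 5 were higher, 9 lower and 6 did not pass the test. SNORD116-21 had 13.15 and 13.14 in siNTC-2, against 12.66 and 12.30 in siNTC-1, a difference of 0.67 ± 0.10 (SE, n = 2 each, adjusted p = 4.48e-05). SNORD116-15 differed by 0.38 ± 0.05 and SNORD116-20 by 0.33 ± 0.05, and SNORD116-14 and SNORD116-23 were higher by 0.26 and 0.25. These 5 copies are among the brightest of the family.

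The lower members in siNTC-2 included all 5 measured copies from 25 to 29, the last group of the tandem array by sequence. SNORD116-27 had 10.82 and 10.67 in siNTC-2, against 11.42 and 11.17 in siNTC-1, and fell by 0.55 on the log2 scale (SE 0.09, adjusted p = 4.39e-05). SNORD116-28 averaged 8.58 in siNTC-2 and 9.02 in siNTC-1, and SNORD116-29, SNORD116-26 and SNORD116-25 differed by -0.49, -0.38 and -0.37. SNORD116-10, SNORD116-13, SNORD116-6 and SNORD116-11 were lower as well, by -0.56, -0.47, -0.47 and -0.34. The 3 sequence groups of SNORD116 (copies 1 to 9, 10 to 24 and 25 to 29) are textbook background, and they were applied after these values had been seen. Outside SNORD116, SNORD114-3 had 4.01 and 4.16 in siNTC-2, against 4.65 and 4.82 in siNTC-1 (difference -0.65 ± 0.11), and SNORD114-26, SNORD115-24 and SNORD115-14 were lower by -0.20, -0.35 and -0.47. Of the 69 other C/D box RNAs, 2 were higher and 52 lower in siNTC-2, with a median of -0.62, while the median of all genes was -0.02.

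**Figure D2:**
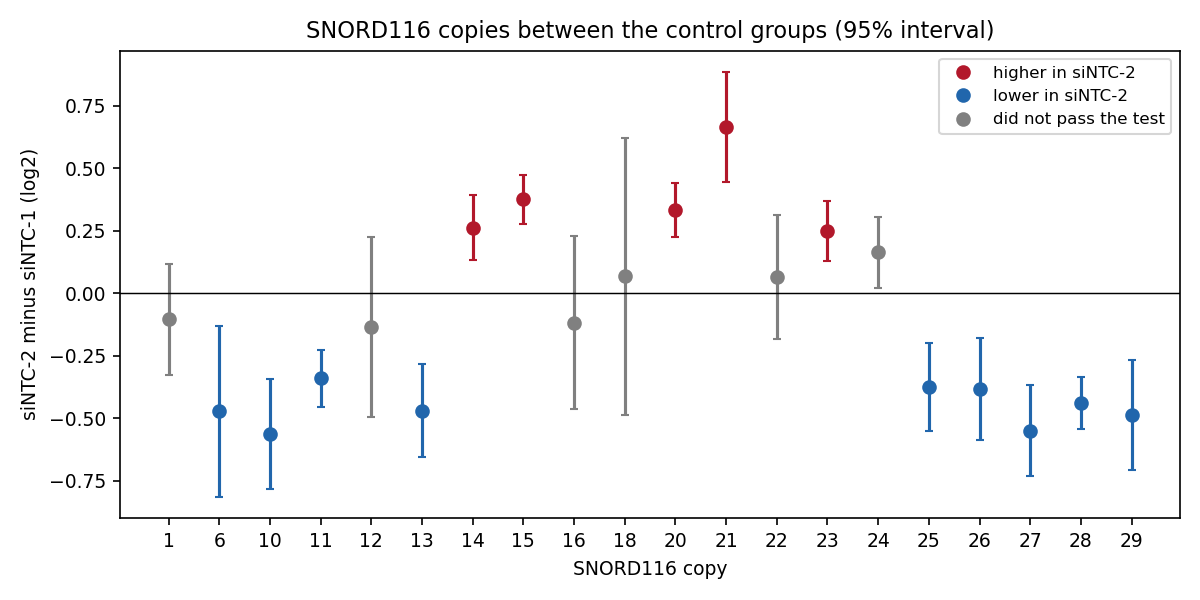
Difference in log2 signal, siNTC-2 minus siNTC-1 (vertical axis), for each SNORD116 copy (horizontal axis); points are differences of group means of 2 arrays, bars are 95% intervals and colour gives the call. Copies 14, 15, 20, 21 and 23 are higher by 0.25 to 0.67, and copies 25 to 29 are all lower, by -0.37 to -0.55.

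Some of the SNORD116 copies that separated the controls also separated the 2 sets of arrays without overlap. The 2 controls lie in different sets, so these 2 separations are not independent. How many of all genes separate the sets was not counted, so the separation is not shown to be particular to these copies. SNORD116-21 lay between 13.05 and 13.59 on the 18 arrays of siNTC-2 and the 8 depletions grouped with it, and between 12.30 and 12.66 on the 8 arrays of the other set. SNORD116-14, SNORD116-15, SNORD116-20 and SNORD116-23 were likewise higher on the 18 arrays with no overlap, and SNORD116-28 was lower, with 8.54 to 8.89 against 8.92 to 9.16. The other members overlapped between the sets, and SNORD116-11, lower in siNTC-2 than in siNTC-1, had the higher median on the 18 arrays (9.92, against 9.61 on the 8).

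Against the mean of both controls, SNORD116 copies were higher in most depletions. The comparisons of the 11 depletions share the 4 control arrays and are therefore not independent. In 3A+3L, 15 of 20 SNORD116 copies were higher and 1 lower, part of 21 members called (15 higher, 6 lower), where 27.4% of all genes were called, 14.4% as higher. In 3A+3B, 15 copies were higher and none lower, part of 16 members called, against 26.7% of all genes (14.9% higher). In 3A+3B+3L it was 13 higher and none lower among 15 members called, against 25.1% of all genes (12.9% higher). The median difference of the 20 copies was 0.45 in 3A+3L, 0.39 in 3A+3B and 0.31 in 3A+3B+3L, while that of all genes was -0.02 in each.

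The copies that rose most in these 3 groups were largely the same named ones. SNORD116-12 had 8.40 and 7.78 in 3A+3L, against 7.41 and 7.12 in siNTC-1 and 7.23 and 7.03 in siNTC-2, a difference from both controls of 0.89 ± 0.15 (adjusted p = 0.00021). Its 2 arrays in 3A+3L were far apart, and both lay above all 4 control arrays. SNORD116-21, SNORD116-24, SNORD116-20 and SNORD116-22 were higher by 0.68, 0.65, 0.63 and 0.60 in 3A+3L. In 3A+3B the largest differences were 0.68 for SNORD116-16, 0.66 for SNORD116-12 and 0.61 for SNORD116-21, and in 3A+3B+3L 0.56 for SNORD116-24, 0.49 for SNORD116-12 and 0.47 for SNORD116-20.

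Smaller sets of copies were higher in the remaining combinations and in siDNMT3A. The counts of SNORD116 copies were 10 higher and 1 lower in siD1+3A (13 members called, 27.4% of all genes), 9 and 1 in siD1+3B (11 members, 27.6%), 9 and 1 in siD1+3A+3B (10 members, 24.4%), 10 and none in siDNMT3A (10 members, 29.5%) and 8 and none in 3B+3L (9 members, 32.8%). The genes called as higher made up 15.9%, 14.7%, 12.5%, 17.2% and 19.0% of all genes in these 5 groups, in the same order. In siD1+3B the largest rises were SNORD116-12 by 0.65, SNORD116-11 by 0.59 and SNORD116-20 by 0.58. In siD1+3A they were SNORD116-12 by 0.51 and SNORD116-20 and SNORD116-21 by 0.46 each. SNORD116-20 led in siDNMT3A (0.50), siD1+3A+3B (0.48) and 3B+3L (0.59). SNORD116-28 was the lower copy each time, by -0.15 in siD1+3A+3B, -0.21 in siD1+3A and -0.23 in siD1+3B. These falls came from siNTC-1: against siNTC-2 alone the differences were 0.067, 0.0098 and -0.011, none past the threshold.

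The 3 depletions grouped with siNTC-1 looked different. In siDNMT1, 3 copies of SNORD116 were higher and 1 lower, and no other member was called, where 30.7% of all genes were called, 12.8% as higher and 17.8% as lower. In siDNMT3B, 2 SNORD116 copies were higher and 6 lower among 16 members called (35.6% of all genes, 15.9% higher and 19.8% lower), and SNORD116-21 and SNORD116-23 fell by 0.41 and 0.34 on the log2 scale. Against siNTC-1 alone SNORD116-21 differed by -0.08 and did not pass the test. In siDNMT3L, 8 copies were higher and 2 lower among 16 members called (33.2% of all genes, 14.5% higher and 18.7% lower), and these included 4 of the 5 copies from 25 to 29. SNORD116-27 had 11.44 and 11.57 in siDNMT3L, against 11.42 and 11.17 in siNTC-1 and 10.82 and 10.67 in siNTC-2. Its difference from both controls was 0.48 ± 0.08, but both arrays exceeded those of siNTC-1 by little and those of siNTC-2 by much, and against siNTC-1 alone it did not pass the test. Among the other C/D box RNAs, 41 of 69 were higher against both controls in siDNMT1, 48 in siDNMT3L and 29 in siDNMT3B. By the same comparison 37 were lower in 3A+3B and 42 in 3B+3L, where 11.5% to 19.8% of all genes were lower in a depletion. These directions depended on the control. Against siNTC-1 alone, 0 were higher and 12 lower in siDNMT1, 1 and 20 in siDNMT3B, and 10 and 6 in siDNMT3L. Against siNTC-2 alone, 20 were higher and 0 lower in 3A+3B, and 8 and 6 in 3B+3L.

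Each depletion was next read against the control of its own set. Against siNTC-2, SNORD116 copies were called as higher and none as lower in the 8 depletions of that set, each count given with the share of all genes called as higher. These were 16 in 3A+3B (6.04% of all genes), 15 in 3A+3L (10.6%), 14 in 3A+3B+3L (10.5%), 12 in siD1+3A (12.0%), 12 in siD1+3B (11.7%), 10 in siDNMT3A (8.44%), 7 in siD1+3A+3B (7.74%) and 5 in 3B+3L (5.61%). The median difference of the 20 copies was 0.49 in 3A+3L, the largest of the 8, and 0.27 in siD1+3A+3B and 3B+3L, the smallest. The 2 arrays of 3A+3L were apart: the 20 copies averaged 11.14 and 10.92 on them, against 11.04 and 10.98 in 3A+3B. These 8 comparisons share the 2 arrays of siNTC-2 and are not independent. Of all 13 groups siNTC-2 was the lowest for copies 1, 6, 10, 11, 12, 13, 16, 25, 26, 27 and 29, and not for the others. The part of this low reference in the counts was not tested. Of the 69 other C/D box RNAs, 46 were higher and 0 lower against siNTC-2 in siD1+3B, and 46 and 0 in 3A+3B+3L. The counts were 40 and 0 in siD1+3A, 40 and 1 in 3A+3L and 34 and 0 in siD1+3A+3B. In siDNMT3A they were 21 and 1, in 3A+3B 20 and 0 and in 3B+3L 8 and 6. Calls mostly as higher against siNTC-2 were therefore not particular to SNORD116. Against siNTC-1, SNORD116 counts in the 3 depletions of the other set were 2 higher and 1 lower in siDNMT1 (19.8% of all genes called, 9.26% higher and 10.6% lower), none higher and 3 lower in siDNMT3B (24.2%, 11.8% higher and 12.4% lower) and 2 higher and none lower in siDNMT3L (19.2%, 9.32% higher and 9.86% lower). The copies in question were SNORD116-15 and SNORD116-20 (0.19 each) and SNORD116-10 (-0.34) in siDNMT1, SNORD116-11, SNORD116-13 and SNORD116-23 (-0.30, -0.25 and -0.22) in siDNMT3B, and SNORD116-24 and SNORD116-15 (0.21 and 0.16) in siDNMT3L.

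A stricter criterion required the same direction past the threshold against siNTC-1 and against siNTC-2 separately. By it, 9 SNORD116 copies were higher in 3A+3B (4.98% of all genes called, 2.95% higher) and 9 in 3A+3L (7.61% called, 4.32% higher). It gave 7 in siD1+3B (8.68%, 4.84% higher), 6 in siD1+3A (8.15%, 5.10% higher), 5 in 3A+3B+3L (7.61%, 4.20% higher), 4 in siD1+3A+3B (6.01%, 2.96% higher), 4 in siDNMT3A (6.80%, 4.38% higher) and 3 in 3B+3L (5.86%, 3.58% higher). By limma's test no member met it as higher in siDNMT1 (9.27% of all genes called, 4.02% higher), siDNMT3B (12.1%, 5.69% higher) or siDNMT3L (9.85%, 4.40% higher). All copies that met it as higher belong to SNORD116, and none of copies 25 to 29 and no chromosome 14 member met it in either direction. Among the 69 other C/D box RNAs, between 1 and 7 met it in each depletion. The 2 controls lie in different sets of arrays. SNORD116-20 had 12.81 and 12.78 in siDNMT1, above siNTC-1 (12.66 and 12.57) but below siNTC-2 (12.93 and 12.97). For copies that separate the sets, counts in the 2 sets are therefore not comparable by this criterion.

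SNORD116-20 and SNORD116-24 met it in all 8 depletions grouped with siNTC-2. SNORD116-20 lay between 13.20 and 13.42 on the 16 arrays of those depletions, against 12.66 and 12.57 in siNTC-1 and 12.93 and 12.97 in siNTC-2, so these arrays do not overlap any control array. Its differences were 0.63 to 0.79 from siNTC-1 and 0.30 to 0.46 from siNTC-2, the largest in 3A+3L, where it was 0.46 ± 0.05 above siNTC-2 (adjusted p = 3.1e-06). In the other set it had 12.81 and 12.78 in siDNMT1, 12.52 and 12.52 in siDNMT3B and 12.65 and 12.76 in siDNMT3L. SNORD116-24 had 13.42 and 13.26 in 3A+3L and 13.07 and 13.05 in siDNMT3A, against 12.73 and 12.48 in siNTC-1 and 12.80 and 12.74 in siNTC-2, and its differences from siNTC-2 were 0.29 to 0.57 in the 8 depletions.

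SNORD116-11 met it in 7 depletions, although siNTC-2 was its lowest group and not its highest. It had 10.09 and 10.10 in siD1+3B, against 9.73 and 9.64 in siNTC-1 and 9.38 and 9.31 in siNTC-2, a difference of 0.42 ± 0.05 from siNTC-1 and 0.76 ± 0.05 from siNTC-2. In 3B+3L it had 9.62 and 9.67, overlapping siNTC-1 and above siNTC-2. SNORD116-14 met the criterion in 6 depletions, SNORD116-1 in 5, SNORD116-12 in 4, SNORD116-22 and SNORD116-23 in 3 each, SNORD116-16 in 2 and SNORD116-21 in 1. SNORD116-21, the copy with the widest spread, met it in 3A+3L alone, since its 2 arrays in siNTC-2 were already at 13.15 and 13.14.

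**Figure D3:**
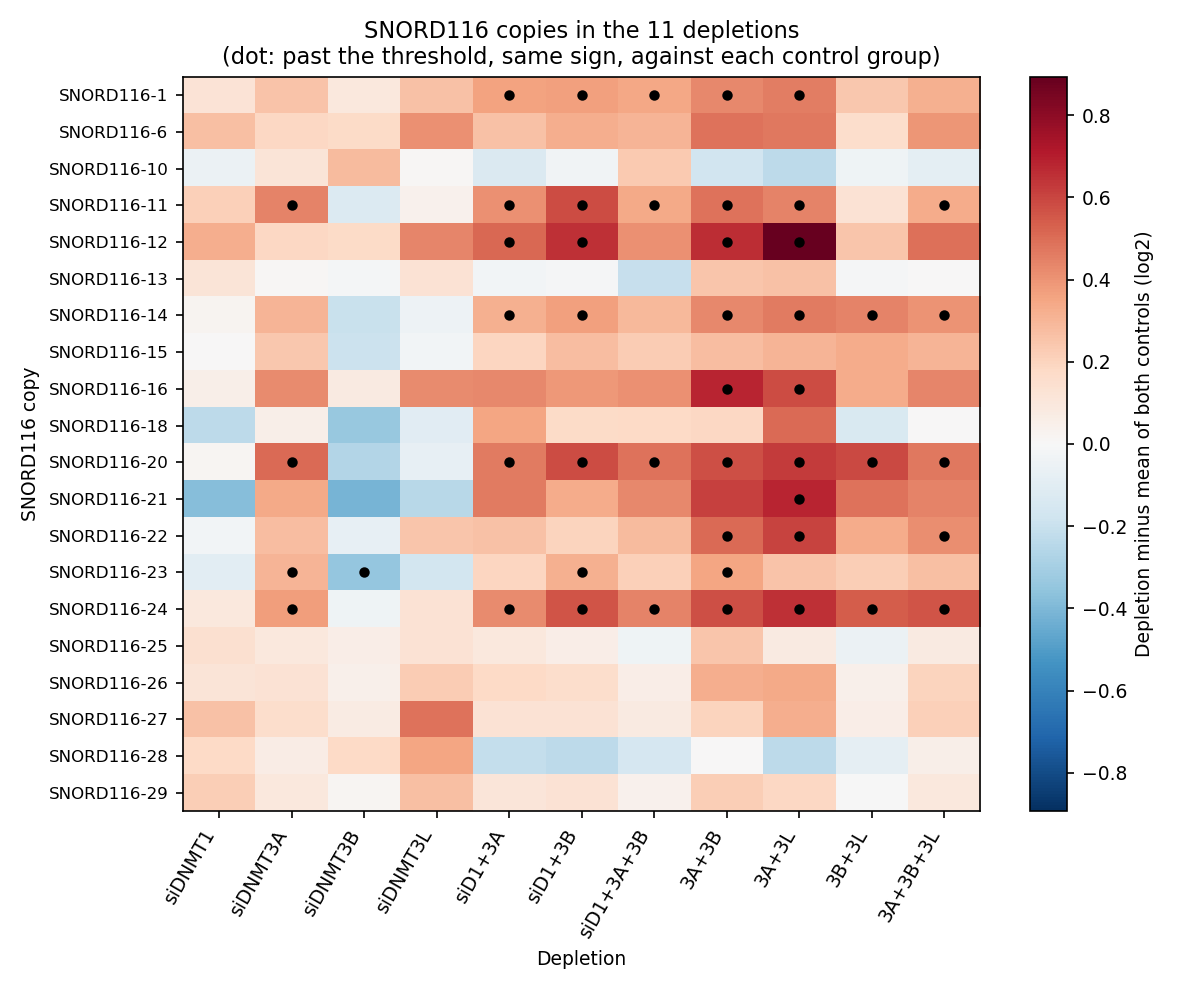
Difference of each depletion (columns) from the mean of both controls (colour, log2) for the 20 SNORD116 copies (rows); a dot marks a copy past the threshold with the same sign against siNTC-1 and siNTC-2 separately. SNORD116-20 and SNORD116-24 carry a dot in 8 columns, the largest difference is 0.89 for SNORD116-12 in 3A+3L, and rows 25 to 29 carry none.

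**Figure D4:**
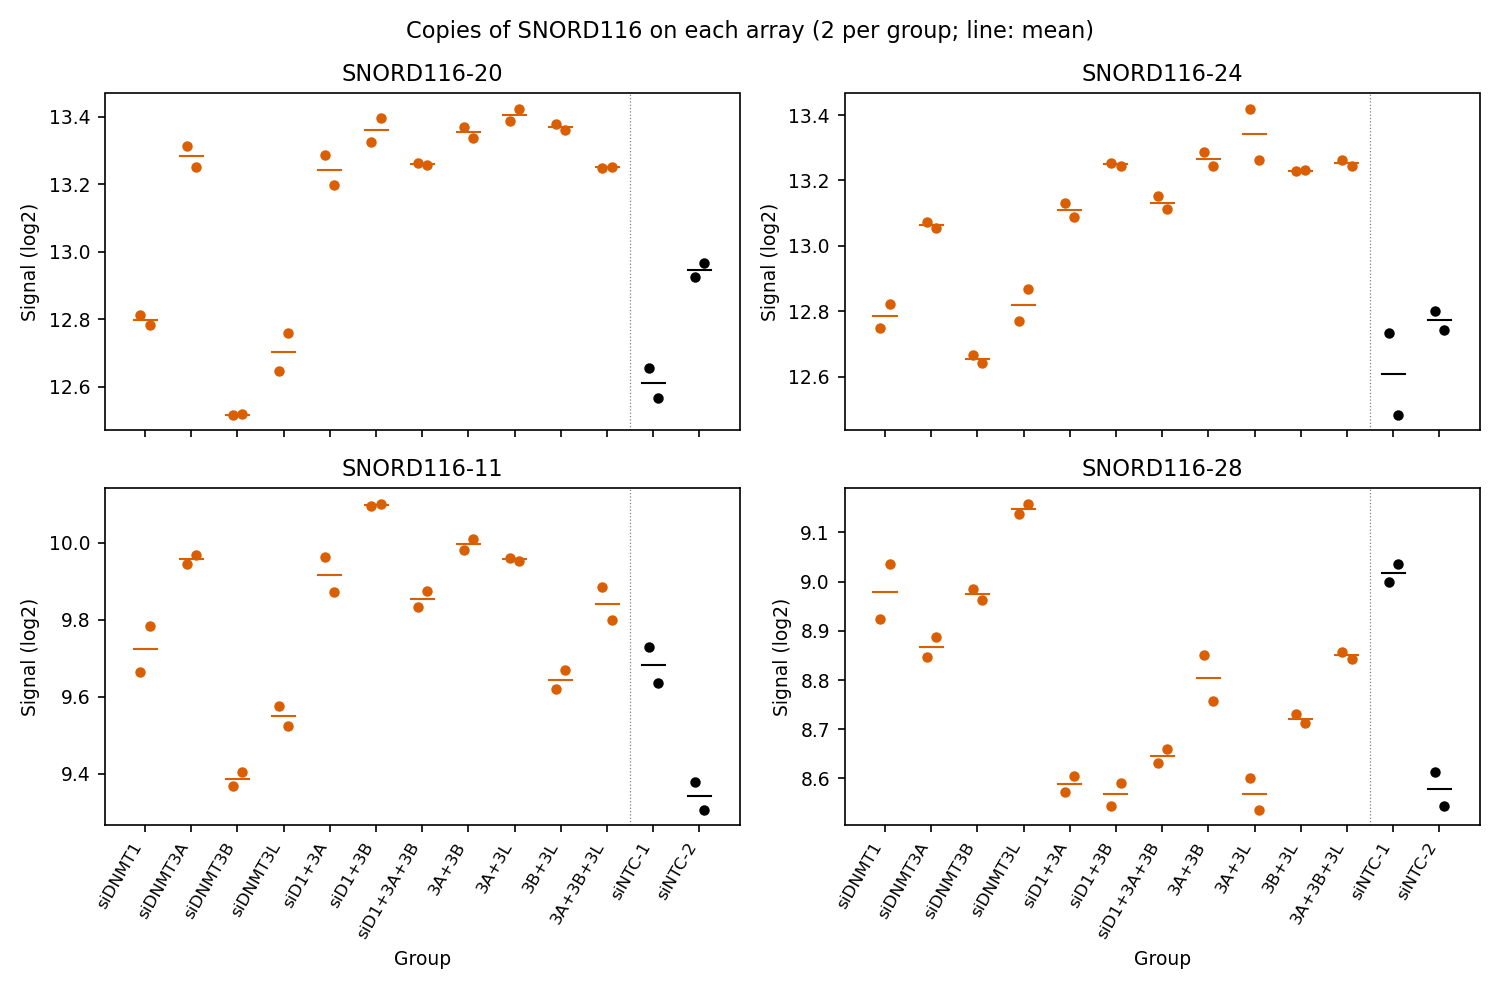
Log2 signal (vertical axis) on each array (points; lines are the means of the 2 arrays) of SNORD116-20, SNORD116-24, SNORD116-11 and SNORD116-28 in the 11 depletions (orange) and 2 control groups (black, right of the dotted line). For SNORD116-20 the arrays of 8 depletions lie at 13.20 or above and the 4 control arrays at 12.97 or below; SNORD116-28 lies at 8.92 or above in siDNMT1, siDNMT3B, siDNMT3L and siNTC-1.

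The stricter criterion gave 4 falls, in siDNMT3B, siDNMT3L and 3A+3L, where 6.39%, 5.45% and 3.29% of all genes were lower by it. SNORD116-23 had 11.68 and 11.65 in siDNMT3B, against 11.97 and 11.81 in siNTC-1 and 12.16 and 12.12 in siNTC-2, and fell by 0.22 against siNTC-1 (adjusted p = 0.0088) and by 0.47 against siNTC-2. In siDNMT3L, SNORD115-8 had 3.79 and 3.78, against 4.02 and 4.21 in siNTC-1 and 4.08 and 4.25 in siNTC-2, and SNORD115-40 had 4.38 and 4.28, against 4.71 and 4.66 in siNTC-1 and 4.50 and 4.68 in siNTC-2. In 3A+3L, SNORD115-48 had 4.54 and 4.52, against 4.64 and 4.92 in siNTC-1 and 4.76 and 4.97 in siNTC-2. These 3 copies of SNORD115 are near the floor of the arrays, and their calls were kept in 5, 7 and 4 of 13 alternative fits without a minimum size.

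Against both controls, between 0 and 5 of the 20 SNORD115 copies passed the test in a depletion, all lower except SNORD115-32, higher by 0.31 in siD1+3A, where 24.4% to 35.6% of all genes were called. The most, 5 of 20 lower in siDNMT3B, stood beside 19.8% of all genes lower there. The 5 lower copies in siDNMT3B were SNORD115-14, SNORD115-24, SNORD115-37, SNORD115-48 and SNORD115-8, with differences of -0.48 to -0.25. SNORD115-24 was also lower in siD1+3B (-0.39), siDNMT3L (-0.32), 3A+3B+3L (-0.38), 3A+3L (-0.47), 3A+3B (-0.55) and 3B+3L (-0.39). It had 5.28 and 5.18 in siNTC-1 and 4.77 and 5.01 in siNTC-2, and no depletion met the criterion against both. The median difference of the 20 copies was between -0.20 (siDNMT3B) and 0.03 (siDNMT3A).

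The 6 chromosome 14 members were called in 4 depletions against both controls, at most 3 of them in one. Of all genes, 24.4% to 35.6% were called in a depletion, and 11.5% to 19.8% were lower. The members were lower in siDNMT3B (SNORD114-2 by -0.30, SNORD114-6 by -0.26 and SNORD114-26 by -0.14), 3A+3L (SNORD114-2 by -0.27) and 3A+3B+3L (SNORD114-2 by -0.24). In siDNMT3L, SNORD114-3 was higher by 0.35 and SNORD113-4 lower by -0.20. SNORD114-3 had 4.67 and 4.84 in siDNMT3L, against 4.65 and 4.82 in siNTC-1 and 4.01 and 4.16 in siNTC-2, so that its difference rested on siNTC-2. Against siNTC-2 alone, 0 of the 6 members were lower in each of these 4 depletions. In siDNMT3B, 3 members were lower against siNTC-1 alone, and 1 was higher against siNTC-2 alone.

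Groups that differ by 1 siRNA were compared directly, without the controls, in the 9 pairs whose groups lie in the same set of arrays. Pairs that cross the sets were not run. With DNMT3L added to DNMT3A (3A+3L minus siDNMT3A) 5 SNORD116 copies were called, against 10.1% of all genes: SNORD116-12, SNORD116-21 and SNORD116-24 were higher by 0.71, 0.34 and 0.28, and SNORD116-28 and SNORD116-10 lower by -0.30 and -0.35. SNORD116-28 had 8.60 and 8.54 in 3A+3L, against 8.85 and 8.89 in siDNMT3A (adjusted p = 0.000804). With DNMT1 added, SNORD116-28 was lower in siD1+3A than in siDNMT3A by -0.28 (1 member called, 9.62% of all genes), and in siD1+3A+3B minus 3A+3B SNORD116-10 was higher by 0.40 and SNORD116-13 lower by -0.45 (2 members, 3.19%). SNORD116-13 had 10.48 and 10.46 in siD1+3A+3B, against 10.92 and 10.93 in 3A+3B.

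The other pairs within a set gave 1 call or none. SNORD116-11 was lower in siD1+3A+3B than in siD1+3B by -0.24 (3.02% of all genes called) and higher in 3A+3B+3L than in 3B+3L by 0.20 (18.9%). SNORD116-28 was higher in 3A+3B+3L than in 3A+3L by 0.28 (0.0977%), and SNORD114-26 higher in 3A+3B+3L than in 3A+3B by 0.26 (9.42%). The calls in siD1+3A+3B minus siD1+3B and in 3A+3B+3L minus 3A+3L were lost in all 4 fits that left out 1 array. With limma's test no member was called in siD1+3A+3B minus siD1+3A (0.570% of all genes) or in 3A+3B minus siDNMT3A (0.0923%), nor in the 2 interactions whose 4 groups lie in one set, of DNMT1 or DNMT3L with DNMT3B on the background of DNMT3A (0.0760% and 0.0326%). At an unadjusted p under 0.05, 4 and 10 members passed in these pairs (12.2% and 10.9% of all genes) and 9 and 14 in the interactions (8.57% and 10.3%). SNORD116-20 and SNORD116-24, which led against the controls, gave a single call in these 9 pairs, the one of SNORD116-24 above.

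Neighbours in the imprinted regions were examined as a list. On chromosome 15, 7 neighbours were measured. Among them were PWAR6, an RNA gene before the first SNORD116 copy, and UBE3A, the ubiquitin ligase gene to which SNHG14 runs antisense. NDN, MAGEL2 and MKRN3, paternally expressed genes upstream, were measured as well. PWAR6 averaged 10.87 and UBE3A 9.80, while NDN, MAGEL2 and MKRN3 averaged 5.97, 4.80 and 4.96. PWAR6 averaged 11.12 to 11.28 in siNTC-1, siDNMT1, siDNMT3B and siDNMT3L and 10.47 to 10.90 in the groups of the other set. SNORD116-20 ran the other way, at 12.52 to 12.81 on the arrays of the first set and 12.93 to 13.42 on the others. SNORD116-14, SNORD116-15, SNORD116-21 and SNORD116-23 did so as well without overlap. SNORD116-28 ran the same way as PWAR6, at 8.92 to 9.16 on the first set and 8.54 to 8.89 on the others. The remaining copies overlapped between the sets. Whether PWAR6 is linked to any copy was not tested. PWAR6 averaged 10.47 in siD1+3A and 10.51 in siD1+3B, against 11.16 in siNTC-1 and 10.81 in siNTC-2. These 2 depletions were lower against each control, by -0.68 and -0.65 from siNTC-1 and by -0.34 and -0.30 from siNTC-2 (SE 0.08). Of the 7 neighbours, ATP10A in siDNMT3A was the only other to meet that criterion, higher by 0.42 and 0.22.

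UBE3A was lower than siNTC-2 in 10 of the 11 depletions, by -0.34 to -0.16, the exception being 3B+3L at -0.09. In siNTC-2 it was itself higher than in siNTC-1, by 0.24. Against siNTC-1 it was called in 3B+3L alone, as higher by 0.15. On chromosome 14, 22 neighbours were measured, with MEG3 at 4.73, DLK1, a gene expressed from the paternal copy, at 6.37 and the microRNAs at 3.49 to 5.85. Against both controls none of the 22 was higher in any depletion and between 0 and 5 were lower, where 12.5% to 19.0% of all genes were higher and 11.5% to 19.8% lower, and MEG3 and DLK1 were not called in any. By the stricter criterion the single call among them was MIR376C in siDNMT3B, lower by -0.34 and -0.31.

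Transcripts of 15 genes for the assembly and processing of snoRNAs were followed as well. The list holds core and assembly factors of C/D box particles, and also DKC1 of the H/ACA class, the exonuclease genes XRN2 and EXOSC10 and the lariat debranching gene DBR1. Against both controls between 0 and 6 were higher and between 1 and 9 lower in a depletion, beside the same all-gene shares of 12.5% to 19.0% higher and 11.5% to 19.8% lower. In siNTC-2, 3 were higher and 7 lower than in siNTC-1, where 24.2% of all genes were higher and 20.5% lower. NOP58, a core protein of C/D box particles named here after its values had been seen, was lower against each control in 7 depletions, among them siD1+3A+3B, by -0.49 from siNTC-1 and -0.28 from siNTC-2. By the same criterion 3 of the 15 genes were lower in siD1+3A+3B, where 561 of 18417 genes were. NOP58 was not called that way in 3B+3L. A link between its level and that of any SNORD116 copy was not tested.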

How the data were processed

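Signals came from 26 single-colour arrays, and the values deposited by the authors are log2 signals of transcript clusters. Per the submitters' processing notes Partek was used, with no role or version named. How background was corrected and arrays normalized is not given in the sources used here. Precision is limited by the number of arrays. Of 33297 rows, 19460 carried 1 gene symbol, 1754 several and 12083 none in the platform annotation, and 0 columns were left unmatched. The row with the highest mean stood for each of 18417 symbols.

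One mean per group (13 in all) was estimated for every gene in limma 3.58.1 (R 4.3.3), leaving 13 residual degrees of freedom, with two-sided moderated tests and Benjamini-Hochberg adjustment over all genes at 0.05 in each comparison. It was tested on simulated data. Depletions were set against the mean of both controls and against each, and pairs differing by 1 siRNA against each other. The members and lists were chosen with earlier results of these data known.

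Named members were those with the highest mean of each family, the 5 highest and 5 lowest, the 5 most variable, and up to 5 rises and 5 falls per comparison and chromosome. Others are named where a count of calls is spelled out. Alternatives were quantile normalization, a filter at the 40th percentile of level, another variance prior, array weights, a replicate block, the mean of all rows, fits of only the groups compared, a 1.5-fold minimum, single controls and leaving out each array. RefSeq names and start windows are of GRCh38.p14.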

Additional observations from a re-analysis of the deposited data

How the results depend on the processing

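The replicate numbers did not pair the arrays: over 78 pairs of groups the correlation of deviations ran from -0.26 to 0.19. With the replicate block, members called were 1 in siD1+3A+3B minus 3A+3B and 0 in 3A+3B+3L minus 3A+3L, and the other counts stayed within 1.5 times.

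Counts of members called against controls moved as follows. With siNTC-1 alone they were 17 in siD1+3A+3B, 8 in siDNMT3B, 8 in siDNMT3L and 17 in 3B+3L, and with siNTC-2 alone 13 in siDNMT1 and 5 in 3B+3L. Without the dimmest 40% of genes, which left 21 members, siDNMT3B had 9, siD1+3A+3B minus 3A+3B 4, 3A+3B+3L minus 3B+3L 2, the interaction of DNMT3L and DNMT3B 1, and against each control siDNMT3L 1 and 3A+3B+3L 9. With the mean of all rows siDNMT3B had 2 against each control. Array weights gave 8 in siDNMT3L, 5 in siD1+3A+3B minus 3A+3B, 2 in 3A+3B+3L minus 3B+3L, 1 in siD1+3A+3B minus siD1+3A, 3 in 3A+3B+3L minus 3A+3B, 1 in each interaction and 0 in siDNMT3L against each control. Quantile normalization gave 2 in 3A+3B+3L minus 3B+3L, 3 in 3A+3L minus siDNMT3A, and against each control 2 in siDNMT3B and 1 in siDNMT3L. The trended and robust prior gave 2 in 3A+3B+3L minus 3B+3L, 2 in 3A+3B+3L minus 3A+3B, 1 and 2 in the interactions with DNMT1 and DNMT3L, and 2 in siDNMT3B against each control. With only the groups compared, and so fewer arrays, counts against both controls were 1 in siDNMT1, 8 in siD1+3A, 6 in siDNMT3A, 6 in siDNMT3B and 8 in siDNMT3L, and against each control 4 in siD1+3B, 1 in siD1+3A+3B, 2 in siDNMT3A, 1 in siDNMT3L, 5 in 3A+3B, 6 in 3A+3L and 1 in 3B+3L, while 5 of the pairs with calls fell to 0. A 1.5-fold minimum left 2 between the controls, 2 in siD1+3B, 3 in 3A+3B, 5 in 3A+3L, 1 in 3B+3L and 0 in the other depletions, 1 in 3A+3L minus siDNMT3A and 0 in the other pairs, and against each control 2 in 3A+3B, 1 in 3A+3L and 0 elsewhere. Where no construction is named, the cause was not tested.

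Leaving out 1 array, which leaves a lone array assumed to vary like the other groups, gave 15 to 18 between the controls and, against both controls, 2 to 8 in siDNMT1, 8 to 17 in siD1+3A, 9 to 17 in siD1+3B, 7 to 16 in siD1+3A+3B, 6 to 12 in siDNMT3A, 8 to 18 in siDNMT3B, 4 to 19 in siDNMT3L, 10 to 24 in 3A+3B, 10 to 22 in 3A+3L, 6 to 13 in 3B+3L and 8 to 17 in 3A+3B+3L. The highest of each of these 11 came without siNTC-1 replicate 1 and the lowest without an array of the depletion, such as siDNMT3L replicate 2 (4) and 3A+3L replicate 1 (10). Against each control the ranges were 0 to 1 in siDNMT1, 3 to 8 in siD1+3A, 4 to 9 in siD1+3B, 2 to 8 in siD1+3A+3B, 2 to 7 in siDNMT3A, 0 to 2 in siDNMT3B, 0 to 6 in siDNMT3L, 4 to 12 in 3A+3B, 6 to 12 in 3A+3L, 3 to 3 in 3B+3L and 3 to 10 in 3A+3B+3L. Of the pairs, 3A+3L minus siDNMT3A ran from 1 (without 3A+3L replicate 1) to 9 (without 3A+3L replicate 2), siD1+3A minus siDNMT3A stayed at 1, and the others and the interactions lay at 0 or between 0 and 1.

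SNORD116-20 kept its call against each control in all 8 depletions in 13 of 13 alternative fits without a minimum size, and lost it in all 8 under the 1.5-fold minimum. Of 185 named values, those that changed sign were SNORD116-27 (-0.0135) and SNORD116-28 (-0.0389) in siDNMT1, SNORD116-28 (-0.0440) in siDNMT3B, and SNORD116-15 (0.16) and SNORD116-21 (0.0828) in siDNMT3L, with siNTC-1 alone, and SNORD116-15 in siDNMT1 (-0.18) and SNORD116-28 in siD1+3A (0.0098) and siD1+3A+3B (0.067) with siNTC-2 alone. The dim SNORD115 and chromosome 14 rows limit what could be detected there.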

Other observations

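Rows shared by several symbols, left out of the gene results, gave the following values. The 9 rows that list several SNORD116 copies averaged 10.34 to 13.58 over the 26 arrays, and siNTC-2 minus siNTC-1 ran from -0.94 to 0.28, with 2 rows above zero. All 9 had a group mean above both control means in siD1+3A+3B and 3A+3L, 6 in siDNMT1, 7 in siDNMT3L, 1 in siDNMT3B and 8 in each of the other depletions. The 8 rows of several SNORD115 copies averaged 4.11 to 6.03. The 2 rows that list SNORD109A and SNORD109B had the same mean of 11.71, and the row that lists SNORD64 with another symbol averaged 11.80. The SNORD109A and SNORD109B rows were higher in siNTC-2 than in siNTC-1 by 0.27. They were above both control means in siDNMT3A and 3A+3L only. The SNORD64 row was above both in siDNMT1, siDNMT3A, siDNMT3B, siDNMT3L, 3A+3L and 3A+3B+3L. No test was run on these rows.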
